A study of Mus musculus with 16 samples.

Results

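Tropomyosins, calponins, supervillin and their neighbours on the actin filament are described here across mouse blood progenitors with and without Tet2. The 10 genes, Tpm1, Tpm2, Tpm3, Tpm4, Cnn2, Cnn3, Svil, Synpo2, Myh9 and Mrvi1, were found by symbol among 23420 gene symbols in each of the authors' deposited tables. They were chosen by their measured values, namely the mean, the log2 fold change, its standard error (SE) and the test status in both tables, so their values below are a description and support nothing. Bone marrow was taken at 40 weeks of age from mice labelled WT, whose genotype field reads Tet2fl/fl, and from mice labelled Tet2KO, whose genotype field reads Tet2-/-. Multipotent progenitors (MPP, Lin- Kit+ Sca1+ CD48+ CD150-) and granulocyte-monocyte progenitors (GMP, Lin- Kit+ Sca1- CD150- CD16/32+) were sorted, with 4 libraries of each genotype in each population and 16 libraries in all. Each library came from an individual mouse, and 3 mice per genotype gave both populations. What deletes the Tet2 allele is not given in the labels used here.

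Tropomyosins are coiled-coil proteins that lie along the actin filament and decide which myosins and severing factors can reach it. Calponins bind actin and restrain myosin, supervillin ties actin and nonmuscle myosin to membranes, and synaptopodin-2 bundles actin in muscle. Myh9 is the heavy chain of nonmuscle myosin IIA, and Mrvi1, also called IRAG, is a substrate of cGMP-dependent kinase that restrains calcium release at the IP3 receptor in smooth muscle and platelets.

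Cnn3 was lower in the libraries labelled Tet2KO in both populations, Synpo2 and Mrvi1 were lower in MPP, Svil was slightly higher in both, and Tpm4 was higher in GMP. The abundant members Myh9, Tpm3, Tpm1 and Cnn2 differed by 0.15 or less on the log2 scale in either population. In the authors' deposited table for MPP, 9 members were tested and 4 were called at an adjusted p of 0.05, 1 higher and 3 lower, against 0.616% of all 11859 genes tested (0.346% higher and 0.27% lower). In the authors' deposited table for GMP, 9 members were tested and 3 were called, 2 higher and 1 lower, against 3.96% of all 11503 genes tested (1.75% higher and 2.22% lower). Nothing is read from these shares, since the selection used the same contrasts. The median log2 fold change of all 10 members was -0.14 in MPP and 0.02 in GMP, with 9 of 10 below 0 in MPP and 4 of 10 in GMP.

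**Figure D1:**
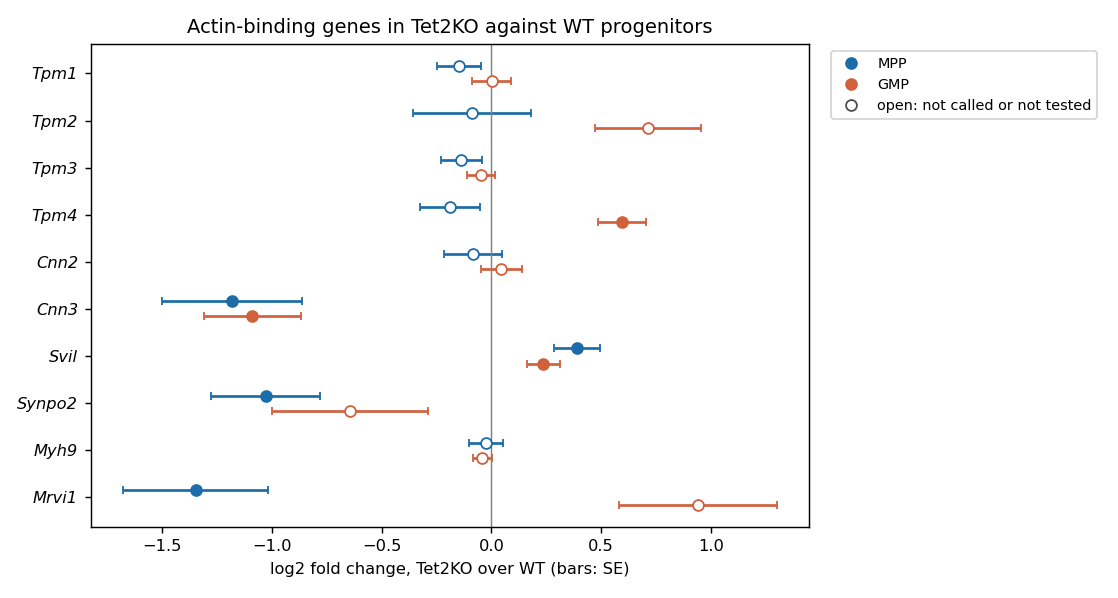
Log2 fold change of Tet2KO over WT for the 10 genes in MPP (blue) and GMP (orange), as the authors' deposited tables give them. Bars are 1 SE and open points were not called or not tested; Cnn3 lies near -1.1 in both populations, whereas the Tpm4 and Mrvi1 points lie on opposite sides of 0.

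The values rest on means over all 8 libraries of a population, normalized separately in MPP and in GMP, so no level is compared across both tables. The deposited fold changes and means were also turned into the mean that each genotype would have with 4 libraries on each side, called the implied mean below. The fold changes may be shrunken towards 0, as the processing section describes. That would carry over to the implied means, the tropomyosin shares and the differences between populations, most for scarce genes such as Synpo2 and Mrvi1 in GMP. Values of single libraries were not analysed here, so whether the genotypes overlap is not shown. In sorted bulk RNA, fewer cells of a type and less RNA per cell cannot be told apart. Genes of the gates were present: in the authors' deposited table the mean of Kit was 7542 in MPP and 6397 in GMP, that of Ly6a, which encodes Sca1, was 266 in MPP, and that of the granule gene Mpo was 200049 in GMP. Mpo also had a mean of 23699 in MPP, where it was marked as an outlier with no p. That mark fell in MPP on 4 of 7 GMP gate genes, 5 of 8 erythroid markers and 5 of 9 monocyte markers. It fell on 1 of 5 MPP gate genes, and on 430 of all 23420 genes. Single libraries of MPP may thus differ in such genes, which was not tested. Tet2 itself was higher in the libraries labelled Tet2KO, at 0.44 in MPP (SE 0.0992, adjusted p = 0.00551) and at 0.35 in GMP (SE 0.0748, adjusted p = 0.000409) on the log2 scale of the authors' deposited DESeq2 tables. These values cover the gene as a whole, so they do not show whether an exon is missing, and higher or lower refers to the Tet2KO label throughout.

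The tropomyosin genes encode closely related proteins, and their coding sequences, taken from the isoforms closest in length, were identical at 80.5% of aligned positions for Tpm1 and Tpm3, 76.6% for Tpm1 and Tpm4, 73.3% for Tpm3 and Tpm4, and 64.9% for Tpm2 and Tpm4. Reads of 75 bases have to tell them apart, so the closest stretch of that length in Tpm4 and Tpm1 is shown, with the bases that differ in capitals.
Tpm1: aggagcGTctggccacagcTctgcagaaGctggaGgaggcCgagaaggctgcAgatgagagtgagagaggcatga
Tpm4: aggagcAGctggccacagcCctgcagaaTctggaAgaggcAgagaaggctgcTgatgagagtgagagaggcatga
The Tpm1 stretch runs from base 434 to 508 of 981 coding bases and the Tpm4 stretch from base 200 to 274 of 747, and they differ at 7 positions. No stretch of that length was identical between any members. Of the 75-base stretches in each gene's transcripts, 19.1% of those of Tpm3 and 12.1% of those of Tpm4 also occur in transcripts of another gene that is no member, against 0 for Tpm1 and Tpm2.

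Tpm4, a nonmuscle tropomyosin known for its part in platelet formation, was higher in GMP of the Tet2KO label. The gene lies on chromosome 8 from 72134975 to 72153142 on the plus strand (mm10). Its GMP mean in the authors' deposited table was 581, and its log2 fold change there was 0.60 (SE 0.108, DESeq2 adjusted p = 1.22e-05), a 1.51-fold difference. The implied mean was 463 for WT and 699 for Tet2KO. For MPP, at a mean of 616, the authors' deposited table gives -0.19 (SE 0.138, DESeq2 adjusted p = 0.706). The difference of both log2 fold changes, GMP minus MPP, was 0.78 with an SE of 0.175 when errors are taken as independent. The 150 bases before the RefSeq start of Tpm4 (chr8:72135138-72135287, plus strand, GRCm38.p6) are shown, since Tpm4 is the tropomyosin called in GMP and TET2 acts on cytosines followed by guanine, which are in capitals.
Tpm4 promoter: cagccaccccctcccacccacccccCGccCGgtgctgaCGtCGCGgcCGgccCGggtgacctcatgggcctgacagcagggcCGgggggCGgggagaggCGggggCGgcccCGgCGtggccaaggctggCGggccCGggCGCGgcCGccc
This stretch holds 18 CpG. It lies before the RefSeq start but inside the GENCODE gene, which begins at 72134975.

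Tpm2, best known from muscle, was the rarest tropomyosin. Tpm2 is on chromosome 4, from 43514711 to 43523765 on the minus strand. Its GMP value in the authors' deposited table was 0.71 on the log2 scale (SE 0.241), larger than that of Tpm4, but at a mean of 70.8 it was not called (DESeq2 adjusted p = 0.0638). The implied mean was 53.6 for WT and 87.9 for Tet2KO. In MPP the authors' deposited table marks Tpm2 as an outlier with no p, at a mean of 107 and a log2 fold change of -0.09 (SE 0.268). The difference GMP minus MPP was 0.80 with an SE of 0.360, about as large as that of Tpm4 but less precise.

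Tpm3 and Tpm1, tropomyosins of most cell types, differed little between genotypes. Tpm3 lies on chromosome 3 from 90072649 to 90100902 on the plus strand, and Tpm1 on chromosome 9 from 67022590 to 67049406 on the minus strand. Per the authors' deposited table for MPP, the log2 fold change of Tpm3 was -0.14 (SE 0.0931) at a mean of 3105, and that of Tpm1 was -0.15 (SE 0.101) at a mean of 888, with a DESeq2 adjusted p of 0.682 for both. For GMP, the authors' deposited table gives Tpm3 -0.05 (SE 0.0647, adjusted p = 0.788) at a mean of 3976, and Tpm1 0.00 (SE 0.0894, adjusted p = 0.996) at a mean of 792.

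Per kilobase of its longest transcript, Tpm3 held most of the summed tropomyosin mean in both tables. In MPP the shares were 66.9% for Tpm3, 15.7% for Tpm1, 14.8% for Tpm4 and 2.52% for Tpm2. In GMP they were 74.3%, 12.2%, 12.1% and 1.44% in the same order. Tpm1 and Tpm4 were thus neighbours whose shares lay within 1 percentage point, and with summed exon lengths in place of the longest transcript the share of Tpm4 was 29.0% in MPP and 24.8% in GMP, so their order depends on the length used. From the implied means, the GMP share of Tpm4 was 9.80% for WT and 14.3% for Tet2KO, and that of Tpm3 was 76.7% and 71.9%. The sum of all 4 genes per kilobase was 103.2% of WT in the GMP libraries labelled Tet2KO and 90.4% of WT in MPP.

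**Figure D2:**
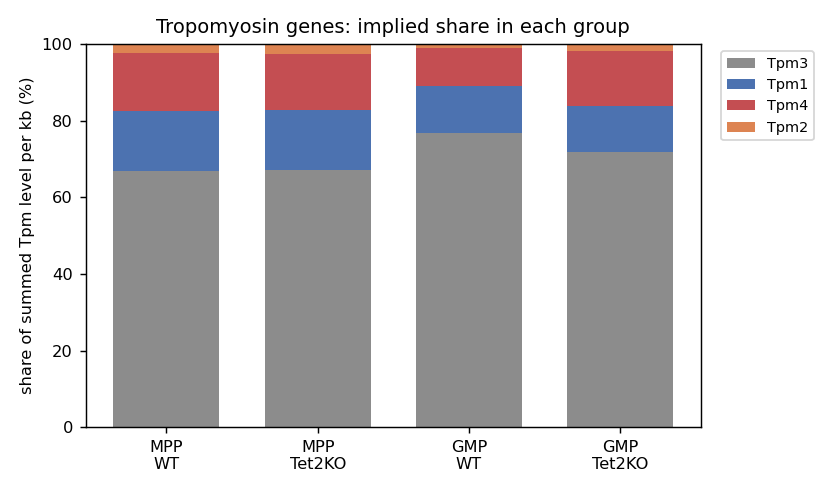
Share of each tropomyosin gene, in percent, in the summed implied mean per kilobase of the longest transcript, for WT and Tet2KO in MPP and GMP, computed from the authors' deposited tables and drawn without error bars since no values per library enter. Tpm3 fills most of each bar, and the Tpm4 segment of GMP goes from 9.80% in WT to 14.3% in Tet2KO.

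Cnn3, the acidic calponin found outside smooth muscle, was lower in the Tet2KO label in both populations. It lies on chromosome 3 from 121426497 to 121458207 on the plus strand. Its MPP log2 fold change in the authors' deposited table was -1.18 (SE 0.320, DESeq2 adjusted p = 0.0394), a mean 2.27-fold higher in WT. The GMP value in the authors' deposited table was -1.09 (SE 0.220, DESeq2 adjusted p = 0.000132), 2.13-fold higher in WT. The implied means were 87.2 for WT and 38.4 for Tet2KO in MPP, and 119.7 and 56.3 in GMP. The difference GMP minus MPP was 0.09 with an SE of 0.388, so a difference in either direction is within the error. Its SE in MPP was above the median of 0.260 among genes of like mean, and with the spread of all test statistics taken into account (an empirical null) its MPP adjusted p was 0.259, which ends that call. Of the 75-base stretches of Cnn3, 16.1% also occur in transcripts of another gene.

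Cnn2, the calponin of blood and other nonmuscle cells, did not follow Cnn3. Cnn2 is on chromosome 10, from 79988584 to 79996062 on the plus strand, and its coding sequence was identical to that of Cnn3 at 60.4% of aligned positions, likewise for the isoforms closest in length. The authors' deposited tables give it -0.08 in MPP (SE 0.134, adjusted p = 0.908, mean 516) and 0.04 in GMP (SE 0.0936, adjusted p = 0.880, mean 547). Per kilobase, Cnn2 stood at 210 in MPP and 223 in GMP, and Cnn3 at 28.4 and 39.7, so the calponin with the lower level is the one called. The promoters of both calponins are shown because they differ in a known actin-gene element: the CArG box, bound by SRF, is spelled CC, then 6 bases of A or T, then GG, and was searched on both strands from 250 bases before to 50 after each RefSeq start. Of all 32851 promoters, 1.63% held it, and among 11 promoters of 9 members only that of Cnn2 did, 56 bases before the start (chr10:79988534-79988563, plus strand, GRCm38.p6, box in capitals).
Cnn2 promoter: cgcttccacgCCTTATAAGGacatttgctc
The Cnn3 stretch is the 150 bases before its RefSeq start (chr3:121426391-121426540, plus strand), with its 15 CpG in capitals. Its last part lies inside the GENCODE gene, which begins at 121426497.
Cnn3 promoter: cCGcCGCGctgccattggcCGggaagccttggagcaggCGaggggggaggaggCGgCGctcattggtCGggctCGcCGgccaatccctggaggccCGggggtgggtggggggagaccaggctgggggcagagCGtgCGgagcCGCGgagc
A match is a description of letters and not a binding site.

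Synpo2, or myopodin, was lower in MPP of the Tet2KO label. It lies on chromosome 3 from 123076519 to 123236149 on the minus strand. Its MPP mean in the authors' deposited table was 119.6 and its log2 fold change -1.03 (SE 0.247, DESeq2 adjusted p = 0.0101), 2.04-fold higher in WT. The implied mean was 161 for WT and 78.7 for Tet2KO. The GMP mean in the authors' deposited table was only 15.1, and the log2 fold change of -0.64 (SE 0.356, adjusted p = 0.357) was not called. With the empirical null the MPP adjusted p was 0.106, which ends the call. The difference GMP minus MPP was 0.38 with an SE of 0.433.

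Mrvi1 had the largest log2 fold change of the members in MPP and the opposite sign in GMP, where it was scarce. Mrvi1 is on chromosome 7, from 110868266 to 110982461 on the minus strand. At a mean of 62.8, the authors' deposited table for MPP gives a log2 fold change of -1.35 (SE 0.329, DESeq2 adjusted p = 0.0121), 2.54-fold higher in WT, with implied means of 90.2 and 35.5. Its GMP mean of 9.85 in the authors' deposited table was below the 10 needed for an adjusted p, with a log2 fold change of 0.94 (SE 0.359). The implied GMP means were 6.74 for WT and 12.95 for Tet2KO, so this value rests on few reads. The difference GMP minus MPP was 2.29 with an SE of 0.486. With the empirical null the MPP adjusted p was 0.113, which ends the call. RefSeq gives 2 starts on chromosome 7, and the 150 bases before each are shown, with CG in capitals, because they hold far fewer CpG than the stretches of Tpm4 and Cnn3 above.
Mrvi1 promoter, chr7:110982462-110982611, minus strand: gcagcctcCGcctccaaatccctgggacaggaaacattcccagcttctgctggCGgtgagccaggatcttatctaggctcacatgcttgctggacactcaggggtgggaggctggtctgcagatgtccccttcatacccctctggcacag
Mrvi1 promoter, chr7:110946188-110946337, minus strand: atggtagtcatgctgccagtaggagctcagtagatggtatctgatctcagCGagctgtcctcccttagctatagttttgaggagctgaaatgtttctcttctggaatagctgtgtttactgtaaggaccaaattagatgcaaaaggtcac
They hold 2 and 1 CpG. Over the whole window, the observed over expected CpG ratio was 0.188 and 0.0621 at the Mrvi1 starts, 0.719 at Tpm4, 0.762 at Cnn3, 0.690 at Synpo2 and 0.881 at Cnn2, beside a median of 0.384 over all promoters. The 3 genes called lower in MPP thus lie on both sides of that median. The E-box CACGTG was in none of the member promoters and in 7.15% of all promoters.

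Myh9, the motor that pulls on these filaments, was the member with the highest mean. Myh9 is on chromosome 15, from 77760587 to 77842175 on the minus strand. Its mean in the authors' deposited tables was 5567 in MPP and 5570 in GMP, with log2 fold changes of -0.02 (SE 0.0752, adjusted p = 0.961) and -0.04 (SE 0.0432, adjusted p = 0.697). Its SE in GMP was below the median of 0.0667 among genes of like mean. The difference GMP minus MPP was -0.02 with an SE of 0.0867.

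Svil, supervillin, was the only member called higher in both of the authors' deposited tables. It lies on chromosome 18 from 4920540 to 5119299 on the plus strand. For MPP the authors' deposited table has a mean of 1004 and a log2 fold change of 0.39 (SE 0.104, DESeq2 adjusted p = 0.0304), a 1.31-fold difference with implied means of 869 and 1139. For GMP it has a mean of 942 and a log2 fold change of 0.24 in the authors' deposited table (SE 0.0759, DESeq2 adjusted p = 0.0467), a 1.18-fold difference with implied means of 864 and 1019. The difference GMP minus MPP was -0.15 with an SE of 0.128. With the empirical null the adjusted p was 0.192 in MPP and 0.547 in GMP, which ends both calls.

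In order of mean per kilobase of the longest transcript, the members spanned a wide range in each table. In MPP the order was Tpm3 (1308), Myh9 (749), Tpm1 (307), Tpm4 (290), Cnn2 (210), Svil (127), Tpm2 (49.2), Cnn3 (28.4), Synpo2 (13.001) and Mrvi1 (10.1). In GMP it was Tpm3 (1675), Myh9 (749), Tpm1 (274), Tpm4 (273), Cnn2 (223), Svil (119), Cnn3 (39.7), Tpm2 (32.5), Synpo2 (1.64) and Mrvi1 (1.59). Among genes with an adjusted p in the same table, Tpm3 was at percentile 98.3 in MPP and Mrvi1 at 10.4. In GMP, Synpo2 was at percentile 0.281 and Mrvi1 at 0.272. The neighbours Tpm1 with Tpm4 and Synpo2 with Mrvi1 have nearly the same level, and no spread over libraries was analysed that could separate them. The 3 members called lower in MPP all lie in the lower part of this order, where the SE is largest.

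**Figure D3:**
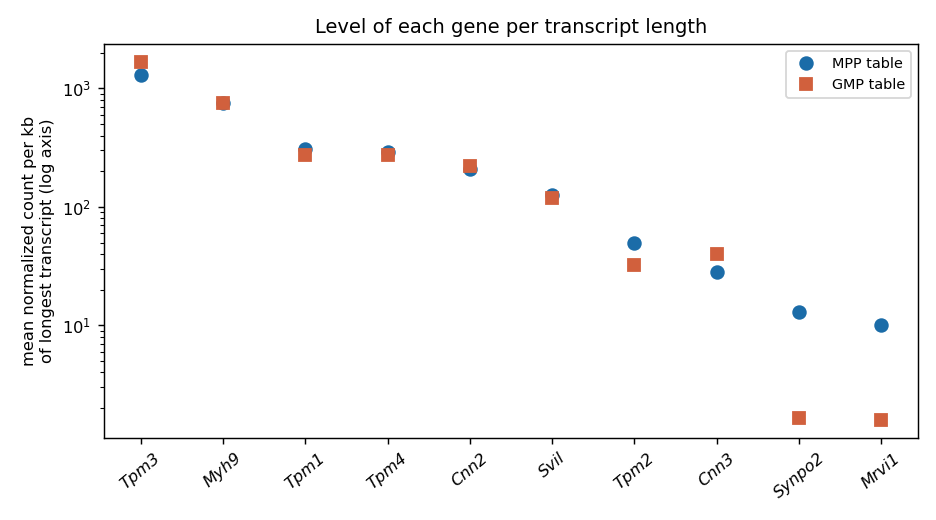
Mean per kilobase of the longest transcript (log axis) of the 10 genes in MPP and GMP, from the authors' deposited tables, without error bars since no values per library enter. Tpm3 and Myh9 lead in both populations, and Synpo2 and Mrvi1 are the lowest in each; the tables were normalized separately, so the points of a gene are not compared across populations.

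Of 134 other genes of actin, myosin and cGMP signalling in 11 lists, 99 were tested in each population. In MPP 1 was called higher and 0 lower by DESeq2 (22, or 22.2%, had an unadjusted p under 0.05, against 9.72% of all genes tested), with a median log2 fold change of -0.03 beside 0.00 over all genes tested. In GMP 1 was called higher and 4 lower (24, or 24.2%, had an unadjusted p under 0.05, against 16.4% of all genes tested), with a median of -0.02 beside 0.00. The calls were 1.01% and 5.05% of the genes tested on the lists, near the 0.616% and 3.96% over all genes.

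Among genes of filament turnover, Dstn, which encodes the actin-depolymerizing factor destrin, fell by 0.49 on the log2 scale in GMP in the authors' deposited table (SE 0.0994, DESeq2 adjusted p = 0.000143). Wdr1, a partner of cofilin in disassembly, fell by 0.28 in GMP (SE 0.0574, DESeq2 adjusted p = 0.000143), and was -0.33 in MPP without being called (adjusted p = 0.0536). These were 2 of 19 genes tested on that list in GMP, and 0 of 19 were called in MPP, where 4 had an unadjusted p under 0.05 and Cap1 was -0.17 (adjusted p = 0.309). Actr3, a core subunit of the branching Arp2/3 complex, fell by 0.33 in GMP (SE 0.0632, DESeq2 adjusted p = 6.17e-05), the only call among 21 genes of that list, and in the authors' deposited table for MPP it was -0.21 (adjusted p = 0.311) and the formin gene Diaph2 0.33 (adjusted p = 0.251), with 0 of 20 genes of that list called and 6 at an unadjusted p under 0.05. Rac2, a GTPase of blood cells that drives actin assembly, fell by 0.20 in GMP (SE 0.0501, DESeq2 adjusted p = 0.00408), and the empirical null ends that call at 0.218. For MPP, the authors' deposited table gave Rhob, a GTPase of endosomes and stress fibres, -0.68 (adjusted p = 0.0555), and its relative Rhoa -0.24 (adjusted p = 0.418).

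The partners of Mrvi1 gave the other calls. Gucy1a3, a subunit of the soluble guanylyl cyclase that makes cGMP, rose in GMP by 1.60 in the authors' deposited table (SE 0.322, DESeq2 adjusted p = 0.000132) at a mean of only 23.3, and was 0.05 in MPP. Itpr2, the IP3 receptor of type 2, rose in MPP by 0.45 (SE 0.123, DESeq2 adjusted p = 0.0499), and the empirical null ends that call at 0.271. In GMP the authors' deposited table gave 0.34 for Itpr2 (adjusted p = 0.0683) and 0.32 for Itpr3 (adjusted p = 0.0889).

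On 7 further lists no gene was called by DESeq2 in either population. Of 3 tested actin genes none had an unadjusted p under 0.05 in either of the authors' deposited tables. The cytoplasmic actins Actb and Actg1 were -0.06 and -0.02 in MPP and -0.05 and -0.04 in GMP, and the scarce smooth muscle actin Acta2 was 0.39 (SE 0.336) in MPP and -0.04 (SE 0.358) in GMP. Tagln2, the transgelin of blood cells and the abundant relative of the calponins, was 0.03 in MPP and -0.09 in GMP. The scarcer Tagln, a smooth muscle transgelin, was 0.66 in MPP (SE 0.320, adjusted p = 0.484) and -0.27 in GMP (SE 0.258, adjusted p = 0.670), and was the 1 of 2 tested genes of that list with an unadjusted p under 0.05 in MPP, against 0 in GMP. Tmod3, which caps tropomyosin-coated filaments, was -0.06 and -0.10 and was the only gene of its list tested. Of 12 tested myosin II light chains and regulators, 1 in MPP and 2 in GMP had an unadjusted p under 0.05, with Myl6 at -0.30 and Ppp1r12a at 0.11 in MPP, and Myl12a at -0.18 and Ppp1cb at -0.19 in GMP. Among the crosslinkers, Synpo, the paralog of Synpo2, was 1.03 in GMP (adjusted p = 0.0593) at a mean of 11.3 in the authors' deposited table, and Flna, which encodes filamin A, was -0.11 there. In MPP Coro1a, a coronin of blood cells, was -0.26 (adjusted p = 0.302) and Iqgap2 was 0.18 (adjusted p = 0.452), and 4 of 13 crosslinker genes in MPP and 1 of 13 in GMP had an unadjusted p under 0.05. In the gelsolin and villin family, to which Svil belongs, 0 of 4 genes in MPP and 1 of 4 in GMP had an unadjusted p under 0.05, with Capg at -0.30 and -0.44, Gsn, which encodes gelsolin, at -0.43 in MPP and Flii at -0.04 in GMP. Srf was -0.23 in MPP and -0.10 in GMP, Tgfb1i1 was 0.55 and 0.71, and Vcl, a target of SRF that encodes vinculin, was -0.28 in GMP (adjusted p = 0.0541), with 0 of 9 and 3 of 8 genes of that list under an unadjusted p of 0.05.

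**Figure D4:**
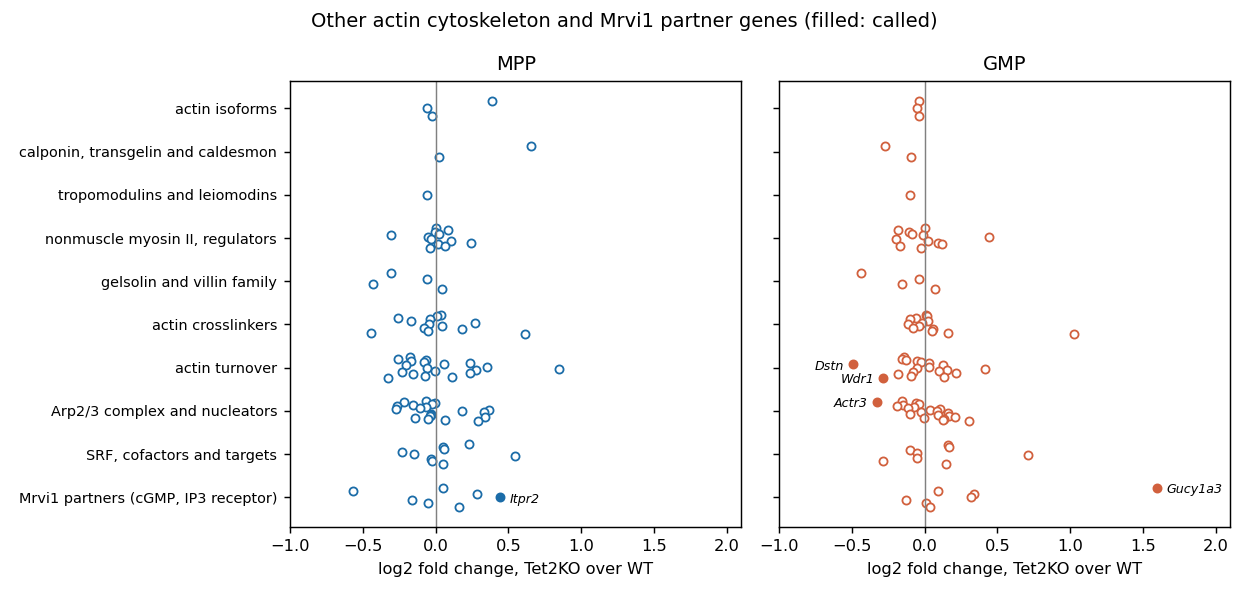
Log2 fold change of Tet2KO over WT for each tested gene of 10 of the lists in MPP and GMP, from the authors' deposited tables, with called genes named. Most points lie near 0, with Dstn, Wdr1 and Actr3 below 0 in GMP and Gucy1a3 above 0.

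Over all 17660 genes with a p in both tables, 0.0453% passed the test of the difference between populations, a two-sided normal test that ignores the mice shared by both tables. Of 125 pathway genes with a p in both, 0 passed and 9 had an unadjusted p under 0.05. The smallest was that of Gucy1a3, with a difference of 1.54 (adjusted p = 0.142). With errors taken as correlated across tables at 0.346, the same test gave a count of 2, Gucy1a3 (adjusted p = 0.00284) and Rhob (difference 0.79, adjusted p = 0.0141). That setting is the correlation of the test statistics over all genes. It also holds genotype effects shared by both populations, so it may overstate the correlation of errors and make the SE too small. The share of all genes that passed under it is not given here. Members get no p for their difference, since they were chosen with both values known.

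Markers of other cell types differed in the same libraries. Of 15 megakaryocyte and platelet markers, all with a mean above 0, 4 of 8 tested were called higher in GMP by DESeq2, among them Mmrn1 (2.06, adjusted p = 1.57e-08) and Vwf (1.01, adjusted p = 0.000145). In MPP 1 of 9 tested was called higher. Over all genes tested, the share called higher was 1.75% in GMP and 0.346% in MPP. For GMP, the implied means of these megakaryocyte and platelet markers summed to 1176 for WT and 1880 for Tet2KO (ratio 1.60). Tpm4 was also higher there. The MPP sums were 3284 for WT and 4866 for Tet2KO (ratio 1.48), whereas Tpm4 was at -0.19 (SE 0.138) in that population and not called. Of monocyte markers in GMP, 4 of 6 tested were called higher, Csf1r at 0.56 (adjusted p = 9.29e-05) and Ms4a6c at 0.57 (adjusted p = 6.74e-09) among them, with a summed ratio of 1.14. In MPP 0 of 4 tested monocyte markers were called and 3 of 4 were below 0, with a summed ratio of 1.26. The other 5 of 9, Csf1r and Ms4a6c among them, were marked as outliers in MPP. The mast cell protease Cma1 fell by 1.71 in GMP (adjusted p = 9.45e-05), with a summed ratio of 0.746 for its list. Their part in the values of Tpm4, Cnn3 and the other members was not tested. Of smooth muscle markers, which share their tissue with Tpm2, Synpo2 and Mrvi1, none was called by DESeq2 and 1 of 5 tested in MPP and 0 of 4 in GMP had an unadjusted p under 0.05. Their summed ratio was 0.957 in MPP and 1.07 in GMP. In MPP the means of Smtn, Pln and Tagln were 244, 65.0 and 37.3, whereas Des and Lmod1 were at 0. Cnn1, the smooth muscle calponin, had a mean of 0.490 in MPP and 1.38 in GMP. The stromal receptor Pdgfrb was called higher in both populations, with 0.83 in MPP (adjusted p = 0.00450) and 0.48 in GMP (adjusted p = 3.41e-05) in the authors' deposited tables, while the stromal genes Dcn and Lum were at 0 in GMP.

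Position is a further property that the selection did not use. Tpm3, Cnn3 and Synpo2 lie on chromosome 3, as does Tet2, which runs from 133463679 to 133545139 on the minus strand. Synpo2 lies 10.2 Mb and Cnn3 12.0 Mb from Tet2, whereas Tpm3 lies 43.4 Mb away. Within 15 Mb of Tet2, a distance chosen after the values were seen and with Tet2 left out, 85 genes were tested in MPP, of which 0 were called higher and 2 lower by DESeq2, these being Cnn3 and Synpo2 themselves. In GMP 77 were tested, of which 0 were called higher and 5 lower: Cnn3, Ostc (-0.41), Sgms2 (-0.9996), Ppa2 (-0.39) and Lmo4 (-0.35). These are 2.35% and 6.49% of the genes tested there, against 0.419% and 4.61% on the rest of chromosome 3 and 0.608% and 3.91% on the other chromosomes. Both calls in MPP, and Cnn3 in GMP, are members chosen by these same fold changes, so nothing is read from the shares. Within 10 Mb, 0 of 53 genes were called in MPP and 3 of 46 in GMP. Whether nearness to Tet2 plays a part in the values of Cnn3 and Synpo2 was not tested.

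**Figure D5:**
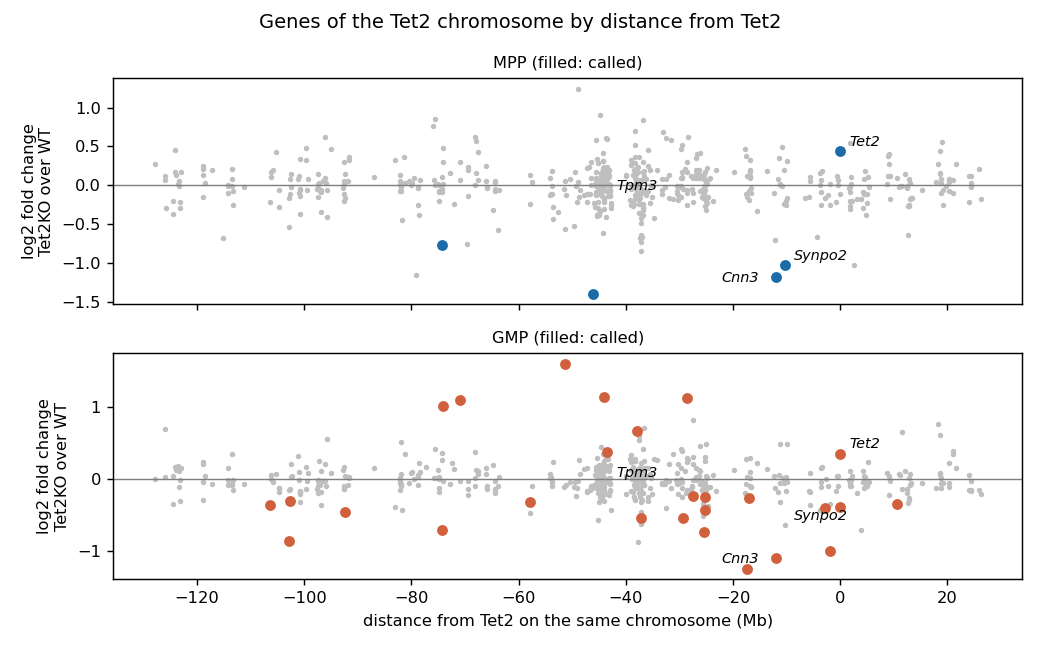
Log2 fold change of Tet2KO over WT for tested genes of chromosome 3 against their distance from Tet2 in Mb, in MPP and GMP, from the authors' deposited tables, with the chromosome 3 members and Tet2 named. Cnn3 and Synpo2 sit below 0 at about 12.0 and 10.2 Mb from Tet2, and Tet2 sits above 0.

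Among 9102 genes with a mean of at least 50 and a p in both tables, the genes nearest to Tpm4 by Euclidean distance over both log2 fold changes were Rgl1 (distance 0.0484), Kctd14 (0.0721) and Thsd1 (0.0741). Rgl1 had -0.19 in MPP and 0.55 in GMP in the authors' deposited tables. Those nearest to Cnn3 were Etv5 (0.325), Chdh (0.498) and Atp1b1 (0.527), with Etv5 at -0.93 in MPP and -1.30 in GMP. These 3 distances to Tpm4 are below the SE of Tpm4 itself, 0.138 in MPP and 0.108 in GMP, so their order is within the error. The distances to Cnn3 are several times larger. The likeness is over 2 comparisons that share mice.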

How the data were processed

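RNA was measured in 16 libraries of sorted progenitors, made from 2 ng of amplified RNA with an RNA integrity number above 8 and sequenced as 75 bp single-end reads, per the labels' protocols. The submitters' processing notes name STAR, DESeq2 and mm10 without versions. How reads were counted, and on which annotation, is not stated in the sources used here. The deposited mean is a normalized signal per gene over the 8 libraries of a population. The authors' deposited log2 fold change and its SE give Tet2KO over WT, a direction that rests on the names of the tables. The highest SE was 0.388 for MPP and 0.359 for GMP; fold changes shrunken towards 0 give such a ceiling, so those of scarce genes may be understated. The deposited p-values and adjusted p-values are the authors', and recomputation as a two-sided normal p with Benjamini-Hochberg adjustment over genes with a mean of at least 10 and no outlier mark gave adjusted values within 2.4e-05. Library depth is unknown; the sum of means was 9436210 for MPP and 11033900 for GMP. P-values measure the spread between mice.

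The members and the gene lists were chosen with earlier results of these data known. All 10 members are named; of each pathway list, up to 4 called genes or else up to 2 of smallest p per population; marker genes in the text were taken from the up to 2 of highest mean and 2 of smallest p of each list, and not all of these are printed; and the 3 genes nearest to Tpm4 and Cnn3. Some genes are given for the population that named them only. Itpr3, Ly6a, Cnn1, Des, Lmod1, Dcn, Lum and the genes near Tet2 were named after their values were seen. Positions, transcripts and lengths come from GENCODE M21 (mm10), and promoters from RefSeq (GRCm38.p6), which held 9 of 10 members. Protein identity was planned; coding bases were aligned in its place. Some results of list genes are not reported here. The call and the difference test were run on simulated data with normal errors that were independent between populations. That setting holds neither the shared mice nor the wider spread of the real test statistics, so it says nothing about either. Tools were Python 3.11.15, numpy 2.4.6, pandas 2.3.3, scipy 1.17.1, biopython 1.88 and matplotlib 3.10.9. Alternatives were an empirical null, an adjusted p of 0.01, a mean of at least 50, recentring, correlated errors and summed exon lengths.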

Additional observations from a re-analysis of the deposited data

How the results depend on the processing

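Of the alternatives only recentring could change a log2 fold change. The medians used were -0.0038 in MPP and 0.00025 in GMP, so the shift was small, and no member changed sign. With the empirical null, which widens the spread of the test statistics to 1.15 in MPP and 1.35 in GMP, the members called in MPP went to 0 higher and 0 lower, the pathway genes called higher in MPP to 0, and the members called higher in GMP to 1, which was Tpm4. An adjusted p of 0.01 gave the same numbers: 0 higher and 0 lower members and 0 higher pathway genes in MPP, and 1 higher member in GMP. Requiring a mean of at least 50 left 0 pathway genes called higher in GMP, since Gucy1a3 has a mean of 23.3. The pathway genes called lower in GMP went from 4 to 5 under that setting and to 3 with the empirical null. With errors taken as correlated across tables at 0.346, a value that may be too high, 2 pathway genes passed the test of the difference in place of 0. Summed exon lengths moved the share of Tpm2 to 3.82% in MPP and 2.29% in GMP, and that of Tpm4 to 29.0% and 24.8%. No paired analysis was possible because the tables hold the authors' comparisons and values per library were not analysed here, and for the same reason no replicate could be left out in turn. Tpm2 and Mrvi1 each lack an adjusted p in 1 of the tables, and scarce members such as Synpo2 in GMP have SEs that allow large differences.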
